A study of Mus musculus with 2 samples.

Results

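The carboxylesterases of the Ces1 and Ces2 subfamilies were followed in mouse ovary by gene symbol: 4 Ces1 genes (Ces1d, Ces1e, Ces1f and Ces1g) and 6 Ces2 genes (Ces2a, Ces2b, Ces2c, Ces2e, Ces2f and Ces2g), which are 10 of the 24421 rows of a table of counts per gene. The study compared an H19 knockout (H19KO) with a wild type (WT). The H19KO sample was ovary of C57BL/6J mice aged 8 weeks whose allele is described as H19(Δ3), and the WT sample was ovary of C57BL/6J mice of the same age. Both received regular chow and no treatment. There was 1 library per genotype, made from total RNA after depletion of ribosomal RNA, and how many mice or ovaries entered each library is not given in the sources used here. The genotypes therefore cannot be compared against a spread between replicates, and no test was possible.

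Carboxylesterases are serine hydrolases of the endoplasmic reticulum that cleave ester, amide and thioester bonds. They hydrolyse drugs and other xenobiotics, and some also hydrolyse triacylglycerol, diacylglycerol and cholesteryl esters. The family is best known from liver and intestine, and in the mouse it has expanded by tandem duplication into clusters on chromosome 8. In the ovary, esters of cholesterol stored in lipid droplets are a source of substrate for steroid synthesis, and their hydrolysis is mainly attributed to other enzymes.

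One gene of the family stood far apart between the libraries. Ces2a was lower in the H19KO library by 11.1-fold, while the other measured genes, Ces2g, Ces2e and Ces1d, were lower by 1.44-fold, 1.38-fold and 1.46-fold. For Ces1d, with 44 counts in H19KO and 65 in WT, a difference was not detectable at this depth. Per kilobase of exon model, Ces2a was the most abundant member in the WT library and the third in the H19KO library, where Ces2g led. By counts, Ces2g led in both libraries. The other 6 members had between 0 and 7 counts in either library. The genes were chosen by family name, and the family was selected on the ratio of counts between these libraries, in which Ces2a had stood out. The values of the members are therefore descriptions.

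The H19KO library held 23041225 counts and the WT library 23335131. H19 itself had 0 counts in the H19KO library against 672 in the WT library, so with 3 counts allowed for a count of 0 it was at least 223-fold lower in H19KO. Counts were scaled by TMM, a trimmed mean of gene ratios that centres most genes near 0, and given as CPM, the counts of a gene per 1e6 scaled counts of its library. Log2 ratios are H19KO over WT with 0.5 added to each scaled count. Each carries the exact conditional binomial 95% interval of the ratio, which covers counting error only and not differences between animals or preparations. To be counted as lower or higher, a gene needed a mean of 1 CPM or more and an interval lying entirely beyond 2-fold, which is a rule of size and not a test. Of 13928 genes at that minimum, 0.388% were lower and 0.610% higher by this rule.

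Of the 10 members, 4 reached a mean of 1 CPM and 6 did not. Of these 4, 1 was lower beyond 2-fold, Ces2a, and 0 were higher, beside the 0.388% and 0.610% of all genes. An interval wholly below a log2 ratio of 0 was found for 3 of the 4, beside 24.0% of all genes. Intervals narrow as counts grow, so such shares depend on abundance. These 4 were not among the most abundant genes. By mean CPM, Ces2g ranked 7209, Ces2a 9095, Ces2e 11843 and Ces1d 12821, with 13928 genes at 1 CPM or more.

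**Figure D1:**
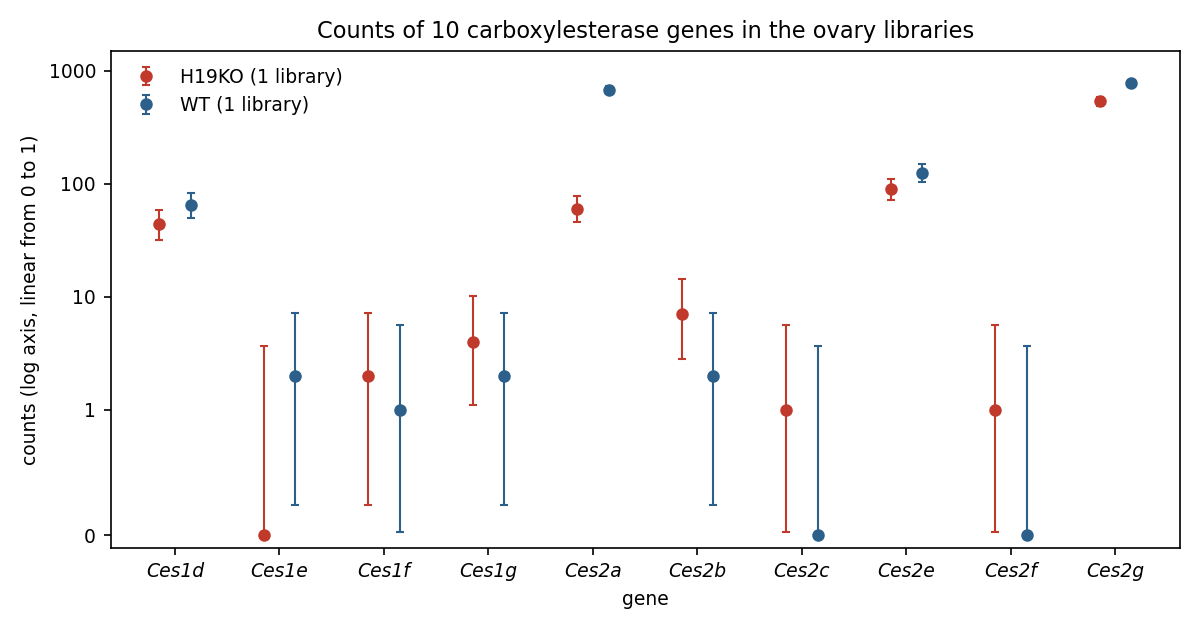
Counts of each of the 10 carboxylesterase genes in the H19KO library (red) and the WT library (blue), on a log axis that is linear from 0 to 1. Bars are exact 95% Poisson intervals of the count. Ces2a had 60 counts in H19KO and 674 in WT, while Ces2g, Ces2e and Ces1d lay closer together and the other 6 genes had 7 counts or fewer.

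Ces2a encodes an esterase of the CES2 type, which prefers substrates with a small acyl group and a large alcohol group. The gene (ENSMUSG00000055730.16) lies on mm10 chromosome 8 from 104734003 to 104741634 on the plus strand. It had 60 counts in the H19KO library against 674 in the WT library, or 2.59 CPM against 29.0 CPM. The H19KO library was low and the WT library high, with Poisson intervals of 45.8 to 77.2 counts in H19KO and 624 to 727 counts in WT. The log2 ratio was -3.47 (-3.89 to -3.10), a level in H19KO that was 9.02% of that in WT. The nearer bound of the fold was 8.57-fold and the farther 14.8-fold. Of all 13928 measured genes, 4 had a log2 ratio at or below this value, Ces2a included, and of the 10302 genes of at least 10 CPM, 3 did.

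Ces2g was the most abundant member by counts in both libraries. It is a CES2-type gene (ENSMUSG00000031877.9, chromosome 8, 104961718 to 104969537, plus strand) that starts 227.715 kb downstream of the start of Ces2a. It had 536 counts in H19KO against 774 in WT, or 23.2 CPM against 33.3 CPM. The H19KO library was lower, with a log2 ratio of -0.52 (-0.68 to -0.36), which lay inside 2-fold.

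Ces2e, the neighbour of Ces2f and Ces2g in the cluster (ENSMUSG00000031886.14, 104926260 to 104934672, plus strand), had 89 counts in H19KO against 124 in WT. That is 3.85 CPM in H19KO against 5.33 CPM in WT. Its log2 ratio was -0.47 (-0.88 to -0.07), again lower in H19KO and inside 2-fold, with a bound close to 0.

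The remaining Ces2 genes were barely detected. Ces2b had 7 counts in H19KO and 2 in WT. Ces2c, an enzyme with acylglycerol hydrolase activity in mouse liver and intestine, had 1 count in H19KO and 0 in WT. Ces2f likewise had 1 and 0 counts in the H19KO and WT libraries. A count of 0 in WT allows up to 3 counts, or 0.129 CPM, so these rows do not separate the libraries, and the Ces2b interval of the log2 ratio, -0.58 to 5.12, spanned 0.

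Ces1d, also known as triacylglycerol hydrolase, which in mouse liver and fat mobilises stored triacylglycerol, was the 1 measured Ces1 gene. The gene (ENSMUSG00000056973.6, chromosome 8, 93166068 to 93197838, minus strand) had 44 counts in H19KO against 65 in WT, or 1.90 CPM against 2.80 CPM. The log2 ratio of -0.55 (-1.14 to 0.02) spanned 0, so a difference was not detectable at this depth. Gm45909, a transcript of type TEC on the same strand, overlaps Ces1d and has no row of its own in the counts.

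The other Ces1 genes were at the limit of detection. Ces1e, or egasyn, which holds part of the lysosomal enzyme beta-glucuronidase in the endoplasmic reticulum, had 0 counts in H19KO and 2 in WT. Ces1f, a second triacylglycerol hydrolase of mouse liver, had 2 counts in H19KO and 1 in WT. Ces1g, a liver enzyme with a role in lipid handling, had 4 counts in H19KO and 2 in WT. Together these 3 genes had 6 counts in H19KO and 5 in WT.

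**Figure D2:**
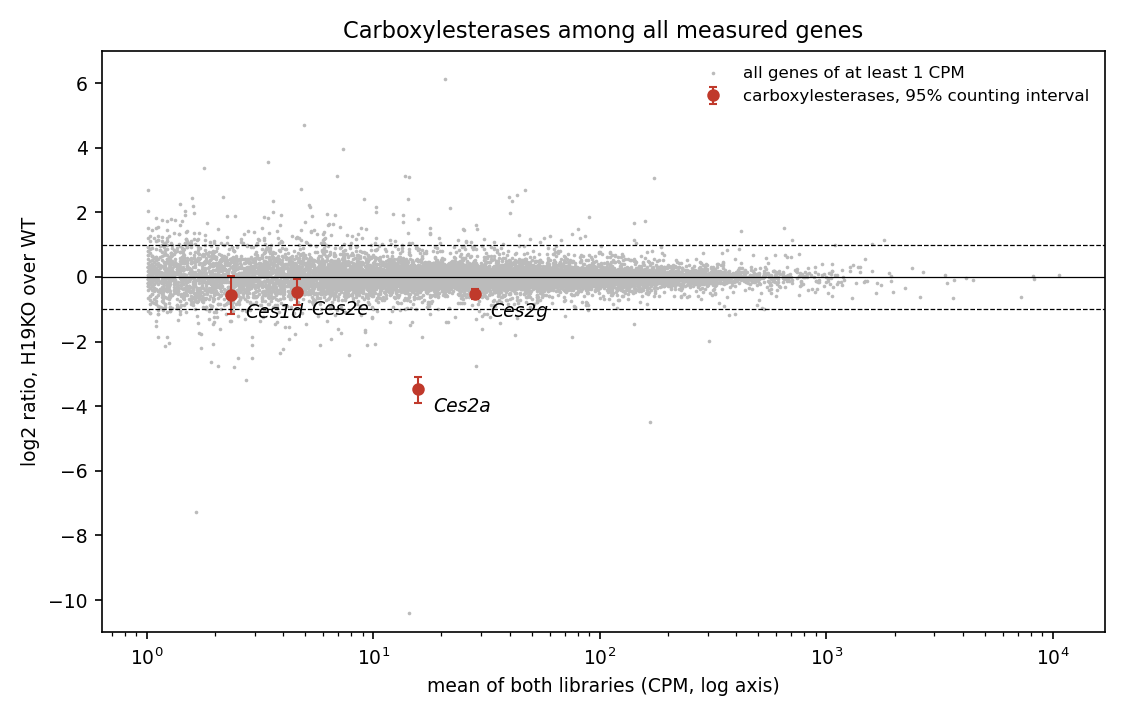
Log2 ratio of H19KO over WT (y axis) against the mean of both libraries in CPM (x axis, log scale) for all genes of at least 1 CPM (grey) and the 4 measured carboxylesterases (red, bars are 95% counting intervals). Dashed lines mark 2-fold. Ces2a lies at -3.47, apart from the band of most genes, while Ces1d, Ces2e and Ces2g lie between -0.55 and -0.47. Genes with no count in 1 library are drawn at a value set by the 0.5 that was added.

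The difference between Ces2a and its relatives does not depend on library scaling, because a ratio of ratios cancels it. The log2 ratio of Ces2a minus that of the other 5 Ces2 genes summed was -2.98 (-3.42 to -2.57, exact conditional interval, counting error only). Against Ces2e alone the difference was -3.01 (-3.58 to -2.44), against Ces2g -2.96 (-3.40 to -2.54), and against Ces1d -2.93 (-3.63 to -2.21). Among the other 3 measured genes, differences were small beside their intervals. The log2 ratio of Ces2e minus that of Ces2g was 0.05 (-0.39 to 0.49), that of Ces1d minus Ces2g -0.03 (-0.64 to 0.57), and that of Ces1d minus Ces2e -0.08 (-0.80 to 0.63). These intervals leave room for unequal ratios of up to about that width.

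Summed over the 6 Ces2 genes there were 694 counts in H19KO against 1574 in WT, or 30.0 CPM against 67.7 CPM. The log2 ratio of the sum was -1.17 (-1.30 to -1.04). Ces2a made up 70.0% of the difference in summed CPM. Without Ces2a the other 5 genes summed to 634 counts in H19KO and 900 in WT, a log2 ratio of -0.50 (-0.65 to -0.35). The 4 Ces1 genes summed to 50 counts in H19KO and 70 in WT, a log2 ratio of -0.47 (-1.03 to 0.07), whose interval spanned 0.

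The make-up of the Ces2 counts differed accordingly. Ces2a held 8.65% of them in H19KO (exact binomial 95% interval 6.66 to 11.0) and 42.8% in WT (40.4 to 45.3). Ces2g held 77.2% in H19KO (73.9 to 80.3) and 49.2% in WT (46.7 to 51.7). Ces2e held 12.8% in H19KO (10.4 to 15.5) and 7.88% in WT (6.59 to 9.32). The larger shares of Ces2g and Ces2e in H19KO stand beside lower CPM values of both, since shares sum to a whole. Ces2b, Ces2c and Ces2f held 1.01% of the counts or less each in H19KO and 0.127% or less each in WT.

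**Figure D3:**
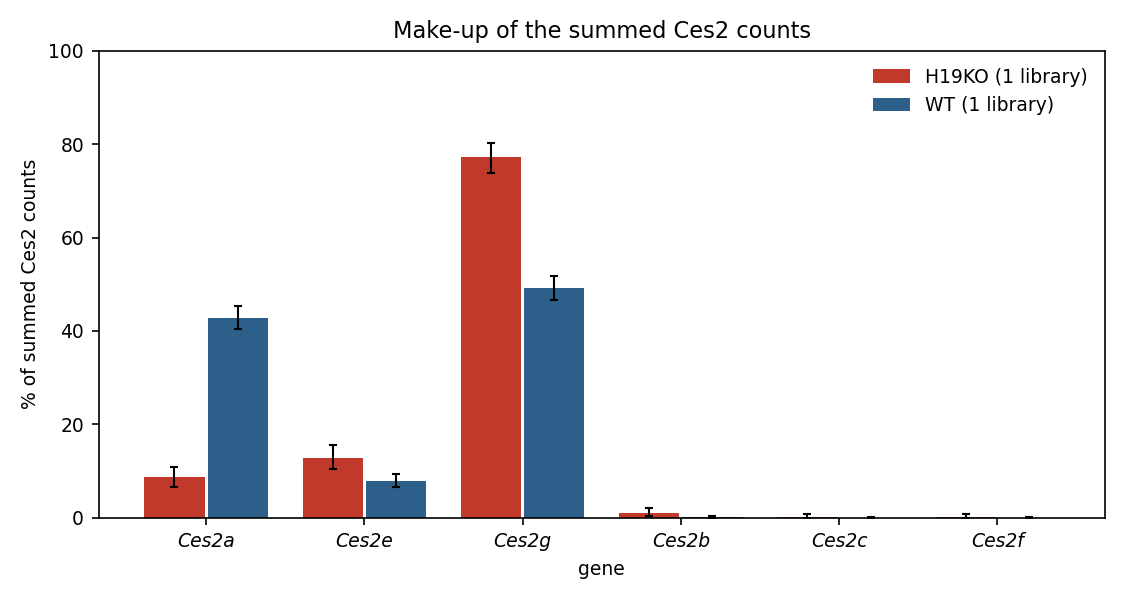
Share of each Ces2 gene in the summed Ces2 counts, in percent, in the H19KO library (red, left) and the WT library (blue, right), with exact binomial 95% intervals as bars. Ces2a held 8.65% in H19KO and 42.8% in WT, and Ces2g 77.2% in H19KO and 49.2% in WT.

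Levels of different genes were compared per kilobase of exon model (CPM per kb). The order depends on the lengths used, 2359 bases for Ces2a and 3574 for Ces2g. By counts, Ces2g was above Ces2a in WT too. In the H19KO library the order was Ces2g at 6.49 (5.95 to 7.06), Ces2e at 1.43 (1.15 to 1.75), Ces2a at 1.10 (0.839 to 1.42) and Ces1d at 0.803 (0.584 to 1.08) CPM per kb. There Ces2e and Ces2a, and Ces2a and Ces1d, had overlapping counting intervals, while Ces2g stood above the rest. In the WT library the order was Ces2a at 12.3 (11.4 to 13.3), Ces2g at 9.31 (8.67 to 9.99), Ces2e at 1.98 (1.64 to 2.36) and Ces1d at 1.18 CPM per kb, with no overlap between neighbours in that order. The 6 other members lay at or below 0.0888 CPM per kb in H19KO and 0.0393 in WT, and intervals of neighbours in the order overlapped.

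Similar genes can share reads, so the likeness of the members bears on these rows. The coding sequences of the Ces2 genes were 79.8% to 92.1% identical over 15 pairs, those of the Ces1 genes 75.6% to 81.8% over 6 pairs, and those between the subfamilies 64.5% to 67.6%. Reads of 76 bases nevertheless separate most of each transcript. Of the words of 76 bases in its GENCODE M21 transcripts, Ces2e shared 0.297% and Ces2g 0.494% with transcripts of other genes, and Ces1d, Ces1f and Ces1g shared 0. Ces2a shared 11.2%, all of it with Gm7208, a transcribed pseudogene at 104675536 to 104682211 on the minus strand that has no row in the counts. Ces2c shared 21.6%, mostly with the pseudogene Ces2d-ps. How the authors treated reads with several matches is not given in the sources used here, and whether reads of Gm7208 entered the Ces2a row was not tested.

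Upstream sequences of the 3 measured Ces2 genes are shown because the ratio of Ces2a was unlike those of Ces2e and Ces2g in the same cluster. RefSeq promoters (GRCm38.p6, the build of mm10) were found for 7 of the 10 members. The 250 bases before the annotated start are printed on the gene's strand, which is plus in each, at chr8:104733753-104734002 for Ces2a, chr8:104926010-104926259 for Ces2e and chr8:104961468-104961717 for Ces2g. Capitals mark GAACTTTG, the reverse complement of CAAAGTTC, which resembles the core of sites bound by the liver and gut regulator HNF4.
Ces2a: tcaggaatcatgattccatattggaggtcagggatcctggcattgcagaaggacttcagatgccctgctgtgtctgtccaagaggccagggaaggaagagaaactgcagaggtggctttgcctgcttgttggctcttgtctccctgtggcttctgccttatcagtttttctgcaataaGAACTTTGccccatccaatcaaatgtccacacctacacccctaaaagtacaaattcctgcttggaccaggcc
Ces2e: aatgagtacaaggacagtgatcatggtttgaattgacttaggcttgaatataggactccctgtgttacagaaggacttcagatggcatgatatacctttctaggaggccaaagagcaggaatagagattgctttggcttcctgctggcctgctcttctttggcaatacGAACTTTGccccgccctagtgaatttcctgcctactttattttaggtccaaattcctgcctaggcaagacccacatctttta
Ces2g: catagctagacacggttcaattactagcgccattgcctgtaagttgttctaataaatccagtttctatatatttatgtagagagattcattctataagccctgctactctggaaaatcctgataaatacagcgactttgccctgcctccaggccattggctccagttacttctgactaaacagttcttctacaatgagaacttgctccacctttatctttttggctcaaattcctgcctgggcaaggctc

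The capitalised letters began at position -72 in Ces2a and -82 in Ces2e, with -1 the base before the start, and were not found in the Ces2g window. They therefore do not set Ces2a apart from Ces2e, whose log2 ratios were -3.47 for Ces2a and -0.47 for Ces2e. The letters were chosen after the sequences were seen. On either strand, CAAAGTTC occurred in 0.907% of 32536 RefSeq promoter windows of the same length. The Ces2a window also held CCAAT at positions -58 and, on the other strand, -231, and the Ces2g window held it on the other strand at -96, none overlapping the capitals. CCAAT occurred in 33.8% of windows. Neither TATAAA, found in 12.3% of windows, nor the NR5A-type letters CAAGGTCA, found in 1.33%, occurred on either strand in these 3 windows. Aligned bases were 69.9% identical between Ces2a and Ces2e, 68.9% between Ces2a and Ces2g, and 64.2% between Ces2e and Ces2g. The longest run shared by Ces2a and Ces2e was 17 bases, from -205 in Ces2a and -183 in Ces2e. A match of letters is a description and not a site.

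The rest of the family was nearly silent. Of 10 other carboxylesterase genes, 9 had a row, and 0 of these reached 1 CPM. Ces5a, known as cauxin from cat urine, had 2 counts in H19KO and 7 in WT. Ces1c, a secreted esterase of mouse plasma, had 2 counts in H19KO and 1 in WT, Ces1b had 1 count in each, and Ces1a and Ces4a each had 1 count in H19KO and 0 in WT. Ces2d-ps, Ces2h, Ces3a and Ces3b had 0 counts in both libraries, which allows up to 0.130 CPM in H19KO and 0.129 CPM in WT.

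No measured gene beside the clusters came close to the ratio of Ces2a, which few genes did anywhere. Of all 13928 measured genes, 4 lay at or below it, Ces2a included. The Ces2 cluster, with Ces3 and Ces4a genes, spans chromosome 8 from 104734003 to 105150109. Of 40 other genes with a row inside it or within 500 kb, 31 reached 1 CPM. Beyond 2-fold, 0 were lower and 0 higher, beside 0.388% and 0.610% of all genes. Their median log2 ratio was -0.08, beside -0.01 over all measured genes. An interval below 0 was found for 9 of the 31 and above 0 for 2, beside 24.0% and 22.2% of all genes. The nearest measured neighbour before the cluster was Rrad, a small GTPase gene, with 335 counts in H19KO and 191 in WT and a log2 ratio of 0.82 (0.56 to 1.08). The nearest after it was Cbfb, a partner of RUNX transcription factors, with 4067 counts in H19KO and 3954 in WT and a log2 ratio of 0.05 (-0.01 to 0.11).

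**Figure D4:**
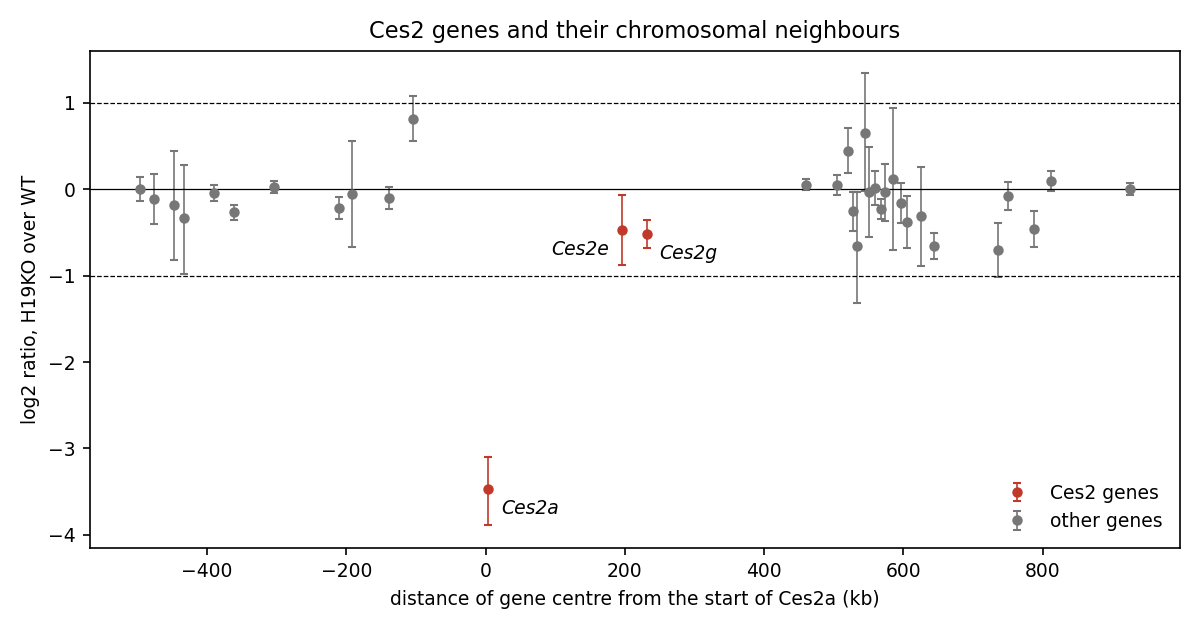
Log2 ratio of H19KO over WT (y axis) for measured Ces2 genes (red) and other measured genes within 500 kb of the cluster (grey), by distance of the gene's centre from the start of Ces2a in kb (x axis). Bars are 95% counting intervals and dashed lines mark 2-fold. Ces2a lies at -3.47, and the ratios of the other genes lie between the dashed lines.

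The Ces1 cluster, which ends with Ces5a, spans 93020214 to 93535830. Of 9 neighbours with a row, 5 reached 1 CPM, with a median log2 ratio of -0.17. None of them lay beyond 2-fold, beside 0.388% of all genes lower and 0.610% higher. The nearest measured neighbours were Lpcat2, a lysophospholipid acyltransferase, with 365 counts in H19KO and 341 in WT (0.11, -0.11 to 0.32), and Gnao1, a G protein subunit, with 722 in H19KO and 835 in WT (-0.20, -0.35 to -0.06).

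Other hydrolases of esters and lipids went both ways. Of 28 such genes, 22 reached 1 CPM. Of these, 1 was lower and 0 higher beyond 2-fold, beside 0.388% and 0.610% of all genes. An interval below 0 was found for 5 and above 0 for 10, beside 24.0% and 22.2% of all genes. Such shares depend on abundance. The median log2 ratio was 0.10. The 1 beyond 2-fold was Lipg, endothelial lipase, which acts on lipoprotein phospholipids. It had 5304 counts in H19KO against 11956 in WT, a log2 ratio of -1.16 (-1.21 to -1.12). Lipa, the lysosomal acid lipase, had 3887 counts in H19KO and 2755 in WT and a log2 ratio of 0.50 (0.43 to 0.58). Esd, an esterase of the cytosol, had 2987 counts in H19KO and 3155 in WT, with a log2 ratio of -0.07 (-0.14 to 0.00).

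Genes of xenobiotic metabolism, the pathway in which carboxylesterases are best known, had mostly small differences. Of 40 genes, 31 reached 1 CPM. Their median log2 ratio was 0.14 beside -0.01 over all genes, with 19 intervals above 0 and 5 below. Over all genes the share above 0 was 22.2% and the share below 0 was 24.0%. Intervals narrow as counts grow, so both shares depend on abundance. Why more of the listed genes lay above 0 than below was not tested. Beyond 2-fold, 1 was higher, beside 0.610% of all genes. It was the drug efflux pump gene Abcb1b, with 22412 counts in H19KO against 7842 in WT and a log2 ratio of 1.52 (1.49 to 1.56). Ephx2, the soluble epoxide hydrolase, had 16071 counts in H19KO and 19570 in WT (-0.28, -0.31 to -0.25). Cyp1b1, a cytochrome P450 that hydroxylates oestrogens and aromatic compounds, had 11969 in H19KO and 9623 in WT (0.32, 0.28 to 0.36).

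Measured regulators known to act on carboxylesterase genes in liver or cell lines were within 2-fold, as were nearly all genes. Of 20, 16 reached 1 CPM, with a median log2 ratio of -0.10. Beyond 2-fold, 0 were lower and 0 higher, beside 0.388% and 0.610% of all genes. There were 8 intervals below 0 and 3 above, beside 24.0% and 22.2% of all genes. The lowest log2 ratios were those of Ppara at -0.57 (-0.74 to -0.40), Pparg at -0.54 (-0.66 to -0.42) and Nr1h4 at -0.40 (-0.63 to -0.17). The highest were those of Mlxipl at 0.40 (0.14 to 0.65) and Nr1h3 at 0.31 (0.07 to 0.56). The most abundant were Sp1, a general activator of promoters (6102 counts in H19KO and 6304 in WT, log2 ratio -0.04), Nfe2l2, the oxidative stress regulator NRF2 (5681 in H19KO and 5735 in WT, -0.01), and the glucocorticoid receptor gene Nr3c1 (2245 in H19KO and 2188 in WT, 0.05). The xenobiotic receptors of liver were at the limit of detection. Nr1i2, which encodes PXR, had 3 counts in H19KO and 4 in WT, and Nr1i3, which encodes CAR, had 0 in H19KO and 2 in WT. Hnf4a, a nuclear receptor of liver and gut, had 5 counts in H19KO and 1 in WT.

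The measured partners in the endoplasmic reticulum, 9 of 11, were also within 2-fold, with a median log2 ratio of 0.00. Beyond 2-fold, 0 were lower and 0 higher, beside 0.388% and 0.610% of all genes. Soat1, which makes cholesteryl esters, had 36348 counts in H19KO and 41372 in WT (-0.18, -0.20 to -0.16). Kdelr2 and Kdelr1, receptors that return proteins to the endoplasmic reticulum, had log2 ratios of -0.06 and -0.09, with both intervals spanning 0. Gusb, the beta-glucuronidase that egasyn binds, had 1919 counts in H19KO and 1456 in WT, a log2 ratio of 0.41 (0.31 to 0.51).

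**Figure D5:**
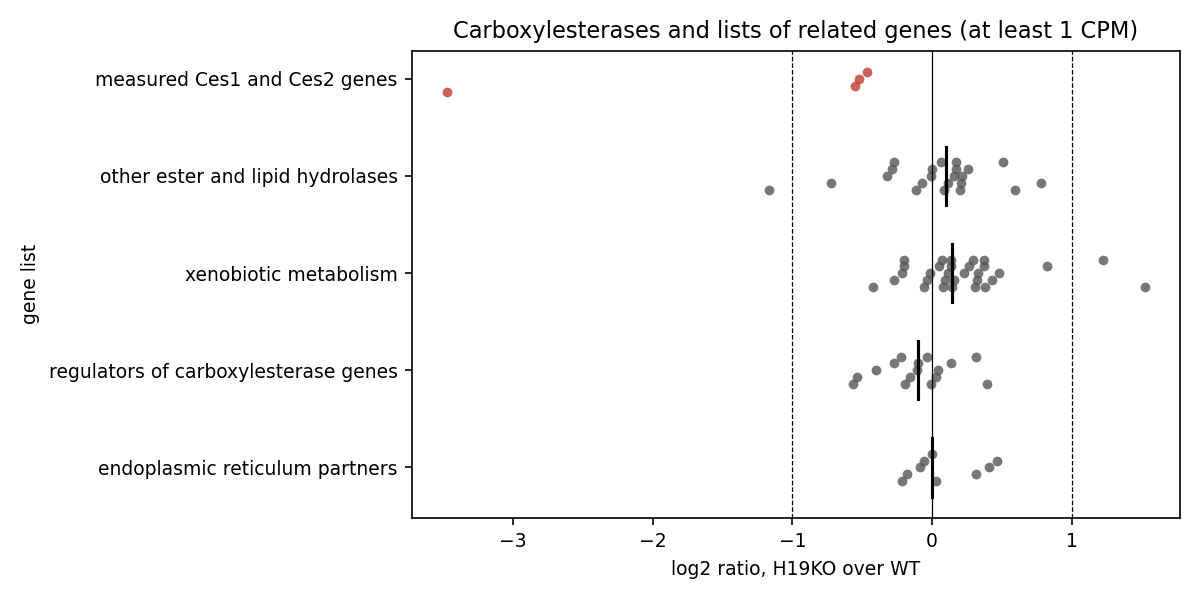
Log2 ratio of H19KO over WT (x axis) for genes of at least 1 CPM in the measured carboxylesterases (red) and 4 lists of related genes (grey), 1 point per gene. Black bars mark the median of each related list, and dashed lines mark 2-fold. Ces2a lies apart at -3.47, while the medians of the 4 lists lie between -0.10 and 0.14.

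The labelled tissue was checked against markers, and the cells that express each member are not known from bulk RNA. In bulk samples, fewer cells of a type and less RNA per cell cannot be told apart. Granulosa cell markers, 11 of 11 measured, summed to 4281 CPM in H19KO and 5408 CPM in WT. Of these, 10 had an interval below 0, beside 24.0% of all genes, a share that depends on abundance. Their median log2 ratio was -0.50, with none at 0 counts. The aromatase gene Cyp19a1 had 345 counts in H19KO and 1052 in WT, and the hedgehog ligand gene Ihh 454 in H19KO and 1070 in WT. The lowest log2 ratio among these markers was that of Cyp19a1, -1.60, beside -3.47 for Ces2a. Their part in the lower Ces2a, Ces2g and Ces2e values was not tested. Luteal markers, 10 of 10 measured, summed to 18213 CPM in H19KO and 19195 CPM in WT (median log2 ratio -0.15), and oocyte markers, 10 of 10, to 345 CPM in H19KO and 434 CPM in WT (-0.31). Theca and interstitial markers, 7 of 8, summed to 4386 CPM in H19KO and 4207 CPM in WT (-0.09), and were mixed, with Cyp17a1 at 2834 counts in H19KO against 11243 in WT and Aldh1a1 at 60594 in H19KO against 50457 in WT.

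Markers of organs rich in carboxylesterases were partly at or near 0 and partly detected. Of 10 hepatocyte markers 2 reached 1 CPM, with a median log2 ratio of 0.45. The albumin gene Alb and the transthyretin gene Ttr each had 1 count in H19KO and 0 in WT, and Fgb 0 in both, while Apoa1 had 949 in H19KO and 672 in WT and Ahsg 50 in H19KO and 38 in WT. The list summed to 44.4 CPM in H19KO and 31.4 CPM in WT. Of 8 intestinal markers 2 reached 1 CPM, with a median of -0.26. Alpi, Cdx1 and Cdx2 had 0 counts in both libraries, Vil1 had 171 in H19KO and 204 in WT, and Apoa4, with 1838 in H19KO and 2243 in WT, held most of the 87.1 CPM in H19KO and 106 CPM in WT. Of 8 kidney tubule markers 3 reached 1 CPM, with a median of 0.65 and sums of 36.5 CPM in H19KO and 34.6 CPM in WT. Kap had 0 counts in both, Aqp1, also an endothelial gene, 663 in H19KO and 701 in WT, Lrp2 142 in H19KO and 79 in WT (log2 ratio 0.85, 0.45 to 1.27), and Cubn 30 in H19KO and 19 in WT.

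Adipocyte markers went both ways, with 5 of 10 at 1 CPM or more and a median log2 ratio of 0.26. The list summed to 272 CPM in H19KO and 570 CPM in WT, most of it from the lipid droplet gene Plin4, with 5650 counts in H19KO and 12643 in WT, lower beyond 2-fold (log2 ratio -1.15). Plin1, another lipid droplet gene, had 253 in H19KO and 341 in WT. Car3 had 135 in H19KO and 91 in WT (0.57, 0.18 to 0.98), Fabp4 96 in H19KO and 65 in WT (0.57, 0.10 to 1.05), and Cfd 33 in H19KO and 12 in WT. The adipokine genes were near 0, with Adipoq at 3 counts in H19KO and 5 in WT, Lep at 0 in H19KO and 1 in WT, and Retn at 0 in H19KO and 6 in WT. The part of these tissues in the carboxylesterase values was not tested.

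Macrophage markers, 10 of 10 measured, had a median log2 ratio of 0.34, and summed to 698 CPM in H19KO and 548 CPM in WT. Endothelial markers, 10 of 10, had a median of -0.18, with 701 CPM in H19KO and 803 CPM in WT. Oviduct markers, 4 measured of 8, had a median of -0.25, with 59.9 CPM in H19KO and 67.8 CPM in WT. They went both ways. Ovgp1, an oviduct secretory gene, had 134 counts in H19KO and 33 in WT (log2 ratio 2.01, 1.47 to 2.63). It was higher beyond 2-fold, as were 0.610% of all genes. The other measured markers had log2 ratios below 0, Tppp3 at -0.70 (-1.01 to -0.40), Sox17 at -0.27 (-0.57 to 0.02) and Cd24a at -0.22 (-0.35 to -0.10).

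The genes of at least 10 CPM whose log2 ratio was nearest to that of Ces2a were listed over the 2 libraries. They were the somatostatin receptor gene Sstr1 (168 counts in H19KO and 1151 in WT, -2.76), the ribosomal protein gene Rpl29 (328 in H19KO and 7435 in WT, -4.49), Amdhd1, an enzyme of histidine breakdown (91 in H19KO and 384 in WT, -2.06), and the androgen synthesis gene Cyp17a1 (2834 in H19KO and 11243 in WT, -1.98). The nearest differed from Ces2a by 0.706 log2 units, so no gene of that abundance had a ratio close to that of Ces2a. With 2 libraries, likeness is a single ratio and says nothing more.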

How the data were processed

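Ovarian total RNA (1 H19KO and 1 WT library) was sequenced as read pairs of 76 bases from stranded libraries after removal of ribosomal RNA, per the labels' protocols. The deposited values are whole-number counts per gene symbol made by the authors. The submitters' processing notes name mm10, DESeq2 1.0.0, STAR 2.5.0a and Cufflinks 2.2.1, without roles. Not given in the sources used here are the tool and annotation behind the counts, their strand setting and the treatment of reads with several matches, so overlapping and near-identical genes may share counts. Whether the counts were rescaled before deposit is likewise not given.

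Totals were 23041225 counts in H19KO and 23335131 in WT, including 27 rows that carry dates in place of symbols (0.231% of H19KO and 0.229% of WT counts). Libraries were scaled by TMM (edgeR 4.0.16), and log2 ratios used 0.5 added to each scaled count. Intervals are exact conditional binomial (Clopper-Pearson) at 95% and cover counting error only. Intervals had a median width of 1.53 log2 units for genes between 1 and 2 CPM. A count of 0 allows 3 counts. Genes were called lower or higher at a mean of at least 1 CPM with the whole interval beyond 2-fold. With 1 library per genotype no test was run. The scripts were tested on simulated counts.

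Coordinates, exon lengths and transcripts came from GENCODE M21, on the same build, and promoters from RefSeq GRCm38.p6. Words of 76 bases from the carboxylesterase transcripts were searched on both strands in the GENCODE transcripts of all genes outside the family. Between carboxylesterases, words were compared in the transcript's own direction only. Coding sequences were compared by global alignment.

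The members and lists were chosen with earlier results of these data known. Named genes were all carboxylesterases with a row, up to 3 of the most abundant and up to 4 beyond 2-fold from each list, the nearest measured chromosome neighbours, up to 4 genes nearest in ratio to the member that differed most, and H19; for marker lists fewer are named, and some further list members are named for their role or because they define a tissue. The alternatives tried were median-of-ratios scaling (DESeq2 1.42.0), scaling by total counts or without the 10 most abundant genes, a larger number (5) added before taking logs, other minimums and limits, neighbours within 1 Mb, the mean of a list and shares per kilobase. R 4.3.3 and Python 3.11.15 were used, with scipy 1.17.1, numpy 2.4.6, pandas 2.3.3 and, for plots, matplotlib 3.10.9.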

Additional observations from a re-analysis of the deposited data

How the results depend on the processing

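Outside the shares, 117 of 120 values under alternatives were labelled the same. For genes, sums and differences this meant a value inside the main counting interval, with any call unchanged. For counts of genes it meant within 1.5 times. For medians of lists and neighbours it meant a shift no larger than a typical single-gene interval reaches on either side, which is not the error of a median. Some of the 120 values could hardly change, so the tally does not measure robustness. Scaling cancels in the Ces2a difference, and members with few counts have wide intervals. Calls rest on intervals computed with nothing added to the counts. With 5 added, the log2 ratio left Ces2a at -3.38 but drew members with few counts towards 0, with Ces1e at -0.48, Ces2b at 0.78 and Ces2c and Ces2f at 0.26. The count of members lower beyond 2-fold was 1 with each scaling, minimum and limit tried. The sum of all 10 members, with a log2 ratio of -1.14 (-1.26 to -1.01), was -1.13 under total count scaling, with an interval whose nearer bound fell just inside 2-fold. The median of the neighbours of the Ces1 cluster was 0.11 with no low count filter and 0.0497 within 1 Mb, since other genes enter. Shares of Ces2 per kilobase of exon model, which weight long genes less, were 12.1% for Ces2a, 15.6% for Ces2e and 71.1% for Ces2g in H19KO, and 52.1% for Ces2a and 39.5% for Ces2g in WT. No paired analysis was possible because the design holds a single H19KO and a single WT library, and no replicate could be left out. Depth limits the 6 members with 7 counts or fewer.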
